A study of Mus musculus with 5 samples.

Results

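Messenger RNAs of the cytosolic ribosomal proteins were followed in mouse brain RNA that had bound in vitro to MA-Brent-1, an mRNA export factor of the REF/Aly family. A probe set was a member if its annotation listed exactly 1 gene symbol and that symbol was an Rpl or Rps name with a number, or Rpsa or an Rplp name. Kinases named after Rps6, Rps19bp1 and symbols of pseudogenes were left out. This gave 105 probe sets for 49 genes, 26 of the large subunit with 48 probe sets and 23 of the small subunit with 57, out of 34945 probe sets with 1 symbol for 18193 genes. The study put 5 arrays into 3 groups: RNA eluted from deiminated MA-Brent-1 on 2 arrays, RNA eluted from non-deiminated MA-Brent-1 on 2 arrays, and the starting RNA with no binding step, called input here, on 1 array. Deimination turns arginine residues of a protein into citrulline. All 5 samples were total RNA of mouse brain, and the sources used here give no strain, age, sex or genotype. The titles of deiminated replicate 2 and non-deiminated replicate 1 call the protein REFP2, those of the other two bound arrays MA-Brent-1, and only the title of non-deiminated replicate 2 speaks of a biological repeat. The p-values below therefore cover only the spread between these arrays, and that spread may be technical.

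Ribosomal proteins are the protein part of the cytosolic ribosome, the particle that translates every nuclear-encoded mRNA. Their mRNAs are short and abundant in most tissues, and many begin with a pyrimidine tract directly at the start site, the 5' terminal oligopyrimidine (TOP) motif, through which growth signals control their translation. In neurons some of these mRNAs are also carried into axons and dendrites. Many ribosomal protein genes have processed pseudogenes whose sequence is nearly identical, so that probes for them can pick up more than 1 locus, and the members below are uncertain in this respect.

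Start regions of 6 member genes are shown first: 4 whose probe sets appear in the results on bound RNA (Rps3a1, Rpl6, Rpl35 and Rps6), 1 that carries both motifs close together (Rpl38) and 1 muscle copy with neither (Rpl3l). They are RefSeq sequences of the build GRCm38.p6, from 60 bases before the annotated start to 20 bases from it on, written 5′ to 3′ on the gene's strand. Capitals mark the word CCGGAAG or its reverse complement, and pyrimidine words at the start.
Rps3a1, chr3:86142649-86142728, minus strand: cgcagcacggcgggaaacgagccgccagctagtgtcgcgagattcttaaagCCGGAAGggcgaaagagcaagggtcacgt
Rpl6, chr5:121204441-121204520, plus strand: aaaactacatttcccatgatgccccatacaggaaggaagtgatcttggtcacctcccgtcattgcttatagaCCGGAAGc
Rpl35, chr2:39005112-39005191, minus strand: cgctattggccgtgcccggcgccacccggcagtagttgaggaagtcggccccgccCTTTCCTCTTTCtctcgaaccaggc
Rps6, chr4:86857348-86857427, minus strand: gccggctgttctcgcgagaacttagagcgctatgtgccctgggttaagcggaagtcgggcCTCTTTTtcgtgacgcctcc
Rpl38, chr11:114668520-114668599, plus strand: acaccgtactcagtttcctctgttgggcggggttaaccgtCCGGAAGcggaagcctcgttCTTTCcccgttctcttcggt
Rpl3l, chr17:24727766-24727845, plus strand: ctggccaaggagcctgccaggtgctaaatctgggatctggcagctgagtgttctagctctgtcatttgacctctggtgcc

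Of the 49 genes, 43 had a promoter sequence in the RefSeq table, with 51 start sites among them. The word CCGGAAG, searched on both strands over 300 bases (250 before the start and 50 after), lay in 21 of the 51 windows (41.2%), against 8.86% of the 32851 windows of all genes. The words CTTTC and CTTTT and also CTTCC and CTCTT, searched on the gene's strand from 5 bases before the start to 10 bases after it, lay in 15 of the 51 windows (29.4%), against 7.04% of all windows. CTTCC is also part of the reverse complement of the first word, so the searches overlap. These words were chosen after member promoters had been seen, and a match describes the letters and no bound factor. The Rps6 and Rpl35 windows also hold CCGGAAG or its reverse complement outside the stretches printed here.

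The deposited signals had been scaled by the authors to a common trimmed mean, 150 on each array, but the arrays differed in other ways. Over all probe sets the signal had a median of 29.8 and 37.5 in deiminated RNA, 30.5 and 41.4 in non-deiminated RNA, and 102 on the input array. The bacterial and phage hybridisation controls, which are added in fixed amounts, averaged 10.6 and 12.6 in deiminated RNA, 10.1 and 13.0 in non-deiminated RNA, and 17 on the input array (log2, 18 probe sets). Their part in the differences from input was not tested beyond the alternative scalings given below. Of 11 tested probe sets of 5 neuron markers, 7 were called higher and 2 lower in deiminated RNA against input, and 7 and 3 in non-deiminated RNA. Over all probe sets tested the shares were 24.9% and 26.6%, and 24.7% and 25.7%. In deiminated RNA the counts were 4 and 3 of 16 for astrocyte markers and 8 and 1 of 15 for oligodendrocyte markers. They were 3 and 1 of 8 for microglia markers, 1 and 1 of 2 for blood markers and 0 and 2 of 2 for liver markers. The brightest probe set of Snap25 had signals of 2520.2 and 2938 in deiminated RNA, 2417 and 2279 in non-deiminated RNA and 288 in input. The liver marker Alb had 18.5 and 28.3 in deiminated RNA, 16.4 and 32.5 in non-deiminated RNA and 284 in input.

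Most ribosomal protein mRNAs gave higher signals in bound RNA than in input, and a smaller number gave lower ones. The median signal of the 105 probe sets was 1314 and 1095 in deiminated RNA, 1165 and 1259 in non-deiminated RNA, and 392 on the input array, so the median of each bound array lay above that of the input array. Between 88 and 91 of the 105 lay above the median of all probe sets on the bound arrays, against 79 on the input array. In plain log2 signals, the members on an array had an SD of 3.49 to 3.60 on the bound arrays and 2.96 on the input array. For the figures and tests, 4.18 was added to each signal before taking log2, and these SDs were taken without it.

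**Figure D1:**
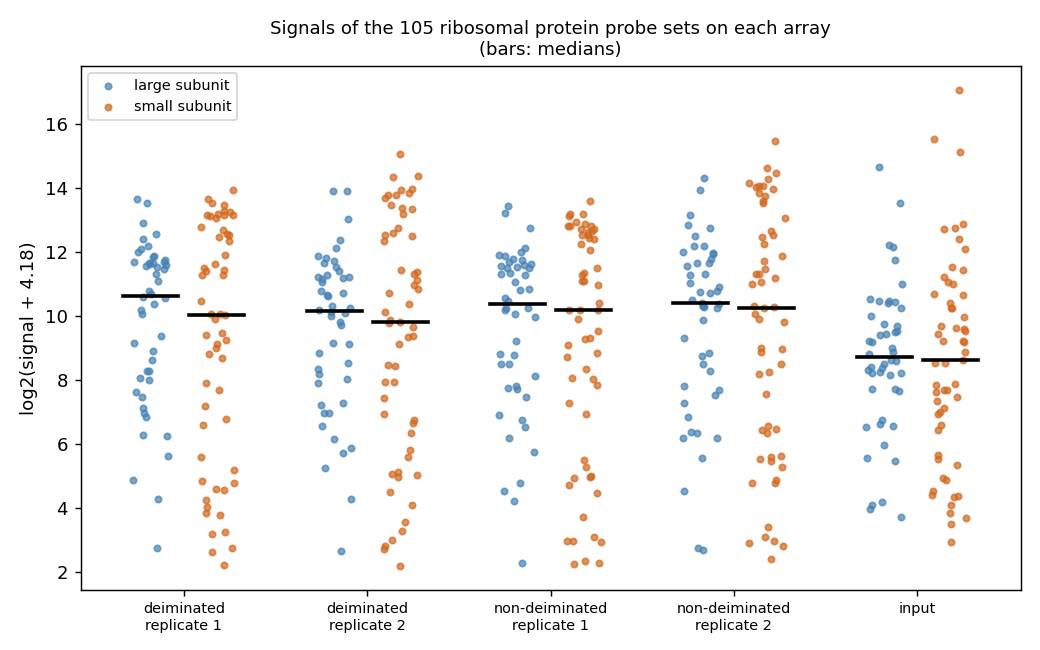
Signal of each of the 105 ribosomal protein probe sets on the 5 arrays, as log2(signal + 4.18), with large subunit genes in blue, small subunit genes in orange and a bar at each median. The bound arrays have medians of 1095 to 1314 in signal units over all members, against 392 on the input array.

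Differences were tested with limma, and a probe set with a Benjamini-Hochberg adjusted p under 0.05 is called. The test covered 27022 probe sets with enough mean signal over the 5 arrays, 96 members among them. In deiminated RNA against input, 49 of the 96 were called higher (51.0%), against 24.9% of all probe sets tested, and 9 were called lower (9.38%), against 26.6% of all. In non-deiminated RNA against input, 50 were called higher (52.1%), against 24.7% of all, and 11 lower (11.5%), against 25.7% of all. The median log2 difference of the members was 1.29 and 1.28, and that of all probe sets was -0.21 and -0.19. Both comparisons use the same input array, and 48 members were called higher and 9 lower in both. With no filter on signal, 48 of all 105 members were called higher and 14 lower in deiminated RNA, with 14.6% and 32.7% as the shares over all probe sets. The numbers for non-deiminated RNA were then 50 and 16, with 14.4% and 30.8%.

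These counts depended on how the arrays were brought to 1 scale. After cyclic loess, which draws the intensity distributions of the arrays together, 26 of the 96 members (27.1%) were called higher and 18 (18.8%) lower in deiminated RNA, close to the shares of 22.8% and 17.2% over all probe sets. The median of the members was then 0.15. In non-deiminated RNA 25 (26.0%) were called higher and 15 (15.6%) lower, against 22.3% and 16.6% of all, with a median of 0.14. After quantile normalisation the members called higher were 44 (45.8%) and 46 (47.9%), against 36.8% and 36.4% of all, and 11 (11.5%) were called lower in either comparison, against 20.1% and 19.9% of all, with medians of 1.02 and 1.00. The share of the members' calls that were higher was 84.5% and 82.0% on the deposited scale, 80% and 80.7% after quantile normalisation, 59.1% and 62.5% after cyclic loess and 96.1% and 94.9% after centring each array on its median, where 44.8% and 43.4% of all probe sets were called higher and 4.83% and 4.54% of all probe sets were called lower. Over all probe sets the share of calls that were higher was, in the same order, 48.4% and 49.0%, 64.7% and 64.7%, 57.0% and 57.3%, and 90.3% and 90.5%. The members' median was positive under each of these scalings, but after cyclic loess only 53 and 55 of the 96 members had positive values. The median of all probe sets moved as well. It was 0.52 and 0.49 after quantile normalisation, -0.24 and -0.26 after cyclic loess and 1.29 and 1.23 after median centring. Without deiminated replicate 1, 30 of 94 tested members (31.9%) were called higher in deiminated RNA, and the share over all probe sets was 18.5%.

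For single genes, the brightest probe set by mean log2 signal stands for its gene, which left 47 genes tested. Of these, 28 were called higher and 3 lower in deiminated RNA against input, and 30 higher and 4 lower in non-deiminated RNA. Over the brightest probe sets of all 13055 tested genes, 29.5% were called higher and 22.4% lower in deiminated RNA, and 29.2% and 21.3% in non-deiminated RNA. The median log2 difference was 1.53 and 1.58. By subunit, 15 and 17 of 25 large subunit genes were called higher in the 2 comparisons, and 13 and 13 of 22 small subunit genes. Among large subunit genes 0 and 1 were called lower, among small subunit genes 3 and 3. The difference between the subunits was not tested.

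**Figure D2:**
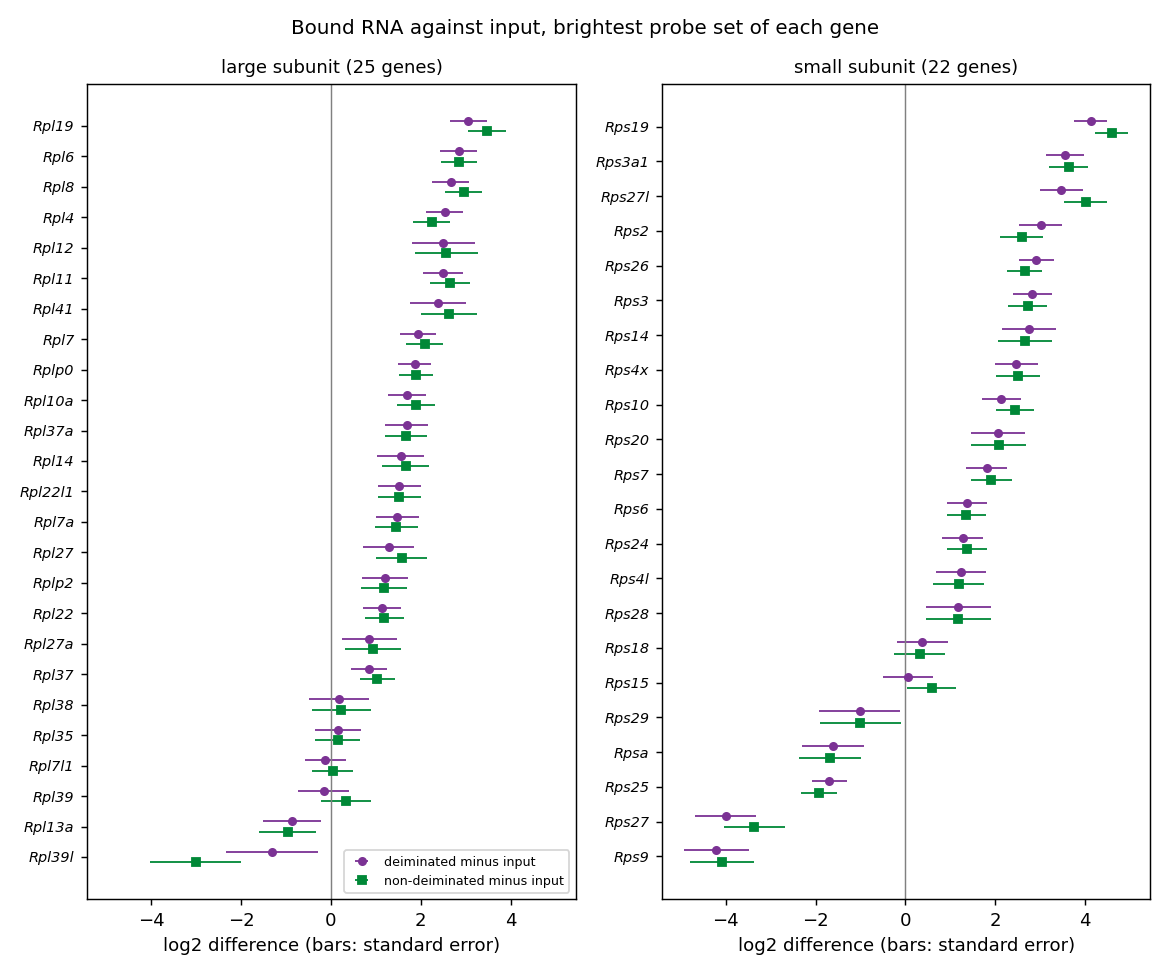
Log2 difference from input of the brightest probe set of each tested gene, in deiminated RNA (purple circles) and non-deiminated RNA (green squares), with standard errors from limma as bars. Large subunit genes are on the left and small subunit genes on the right, each ordered by the deiminated value. Rps19 stands at the top with 4.12 and 4.59, and Rps9 at the bottom with -4.21 and -4.08.

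The proteins of the stalk, the side arm of the large subunit that recruits translation factors, were measured through 3 genes. Rplp0, which anchors the stalk, had signals of 1314 and 1106 in deiminated RNA, 1219 and 1232 in non-deiminated RNA and 327 in input. All 4 bound arrays lay above the input array, and its log2 differences were 1.87 ± 0.37 for deiminated and 1.89 ± 0.37 for non-deiminated (standard errors from limma, 2 arrays each against 1; adjusted p = 0.00163 and 0.00156). Rpl12, at the stalk base, had 73.5 and 66.5 in deiminated RNA, 68.7 and 78.7 in non-deiminated RNA and 8.89 in input. It was called higher, by 2.5 ± 0.70 for deiminated and 2.57 ± 0.70 for non-deiminated, from low signals, and without deiminated replicate 1 its deiminated value of 2.43 was not called. Rplp2, a protein of the stalk tip, had 7647 and 8421 in deiminated RNA, 6828 and 9086 in non-deiminated RNA and 3479 in input. Its bound arrays also lay above input, but 1.20 ± 0.51 for deiminated and 1.18 ± 0.51 for non-deiminated did not pass (adjusted p = 0.0625 and 0.0688), and both values turned negative after cyclic loess (-0.38 and -0.35). After centring on the median Rplp2 was called higher, with 2.70 and 2.60 (adjusted p = 0.000192 and 0.000261), and its deiminated value was also called with either non-deiminated array left out. No member probe set was listed for Rplp1, nor for the small subunit gene Rps27a.

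Rpl11 belongs to the particle that brings the small 5S ribosomal RNA into the large subunit, and it also binds the p53 regulator Mdm2. It had 2169.6 and 1175 in deiminated RNA, 1507 and 2111 in non-deiminated RNA and 280.1 in input. Its log2 differences of 2.49 ± 0.44 for deiminated and 2.65 ± 0.44 for non-deiminated were both called. Rpl5, its partner, and Rpl17 had no member probe set. Of the proteins that line the exit tunnel for the new peptide, Rpl4 had 3101 and 2361 in deiminated RNA, 2550.2 and 1928 in non-deiminated RNA and 464 in input, and it was called higher by 2.53 ± 0.41 for deiminated and 2.25 ± 0.41 for non-deiminated. Rpl39 had 71.8 and 90.8 in deiminated RNA, 88.2 and 151 in non-deiminated RNA and 90.5 in input, so that its bound and input signals overlapped, and it was not called (-0.16 ± 0.56 for deiminated and 0.34 ± 0.56 for non-deiminated). After quantile normalisation Rpl39 was called higher in both comparisons, with 1.24 and 1.67 (adjusted p = 0.0489 and 0.0141). After median centring it was called higher in non-deiminated RNA alone, with 1.76 (adjusted p = 0.0181).

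The other large subunit genes with the largest called differences were Rpl19, Rpl6 and Rpl8, core proteins of the subunit. Rpl19, which takes part in a bridge between the subunits, had 3274 and 2120.2 in deiminated RNA, 3811 and 3206 in non-deiminated RNA and 312 in input. Every bound array was several-fold above input, with 3.06 ± 0.42 for deiminated and 3.47 ± 0.42 for non-deiminated. Rpl6 had 3237 and 2315 in deiminated RNA, 3044 and 2491 in non-deiminated RNA and 378 in input, and differences of 2.84 ± 0.41 for deiminated and 2.85 ± 0.41 for non-deiminated. Rpl8, which lies close to the centre where peptide bonds form, had 3268 and 2486 in deiminated RNA, 3149.6 and 3886 in non-deiminated RNA and 445 in input, and differences of 2.67 ± 0.41 for deiminated and 2.96 ± 0.41 for non-deiminated. For these 3 genes no bound array overlapped with input, and the calls in both comparisons were kept under each alternative run.

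Among small subunit genes, Rps19 had the largest difference among those called higher in both comparisons, taking the brightest probe set of each gene. Rps19 is needed to mature the small subunit RNA, and its human gene is mutated in Diamond-Blackfan anaemia. It had 951 and 804 in deiminated RNA, 1165 and 1259 in non-deiminated RNA and 46.4 in input. The bound arrays were far above the input array, with 4.12 ± 0.37 for deiminated and 4.59 ± 0.37 for non-deiminated (adjusted p = 4.75e-06 and 2.44e-06). Rps3a1, a protein at the platform side of the subunit, had 5878 and 5187 in deiminated RNA, 5918 and 5720.4 in non-deiminated RNA and 467 in input. Its 4 bound arrays lay close together, and its differences were 3.55 ± 0.43 for deiminated and 3.63 ± 0.43 for non-deiminated.

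Some proteins around the path of the mRNA were also among the genes called higher. The brightest probe set of Rps9, near the mRNA entry, was called lower (-4.21 and -4.08). That of Rps15, close to the decoding site, was not called (0.06 and 0.58). Rps3, at the entry of the mRNA channel and known for a role in DNA repair, had 5240.4 and 5797 in deiminated RNA, 5380.0 and 4855 in non-deiminated RNA and 775 in input, with 2.82 ± 0.43 for deiminated and 2.71 ± 0.43 for non-deiminated. Rps2, also at the entry, had 7062 and 6217 in deiminated RNA, 6451 and 3756 in non-deiminated RNA and 819 in input, with 3.01 ± 0.48 for deiminated and 2.58 ± 0.48 for non-deiminated. Rps26, at the exit of the channel, had 2870.1 and 2677 in deiminated RNA, 2611 and 2059.5 in non-deiminated RNA and 365 in input, with 2.91 ± 0.39 for deiminated and 2.65 ± 0.39 for non-deiminated. Each of the bound signals of Rps3, Rps2 and Rps26 lay above the input signal. Rps14, whose loss in a human chromosome deletion syndrome impairs red cell formation, had 11746 and 15993 in deiminated RNA, 8931 and 18347 in non-deiminated RNA and 2025 in input, with 2.76 ± 0.60 for deiminated and 2.66 ± 0.60 for non-deiminated. Rps6, the target of the S6 kinases downstream of mTOR, had 408 and 239 in deiminated RNA, 318 and 303 in non-deiminated RNA and 119 in input. It was called higher by 1.36 ± 0.44 for deiminated and 1.36 ± 0.44 for non-deiminated, and the deiminated call was lost without deiminated replicate 1 (0.98, adjusted p = 0.203). After cyclic loess, values that no longer passed were those of Rplp0 (0.48 and 0.54) and Rps6 (0.67 and 0.66) in both comparisons, of Rpl11 in deiminated RNA (1.08), and of Rpl4 and Rps2 in non-deiminated RNA (0.83 and 1.09). In limma without a variance trend, Rps6 did not pass in either comparison (adjusted p = 0.0728 and 0.0753).

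Genes lower in bound RNA were fewer, and the direction of each turned when the arrays were shifted to equal hybridisation controls. On that shifted scale the median of all probe sets was 5.23 and 5.28, 0 of 27022 were called lower, and all 96 tested members had positive values in both comparisons. Rps25, which takes part in initiation at internal entry sites, had 236 and 241 in deiminated RNA, 224 and 183 in non-deiminated RNA and 781 in input. Bound signals were below input on all 4 arrays, with log2 differences of -1.69 ± 0.40 for deiminated and -1.93 ± 0.40 for non-deiminated (adjusted p = 0.00447 and 0.00222), and with 3.75 and 3.54 after the shift. After centring the arrays on their medians Rps25 was not called (-0.20 and -0.51). Rps27, a zinc finger protein of the small subunit, had 24.3 and 44.5 in deiminated RNA, 34.3 and 82.6 in non-deiminated RNA and 589.8 in input, with -4.0 ± 0.68 for deiminated and -3.36 ± 0.68 for non-deiminated, and 1.44 and 2.11 after the shift. Without non-deiminated replicate 1 its non-deiminated value was -2.78, and without non-deiminated replicate 2 it was -3.95. The brightest probe set of Rps9, a protein near the mRNA entry, had 6078 and 9308 in deiminated RNA, 4901 and 13737 in non-deiminated RNA and 138889 in input. The differences were -4.21 ± 0.72 for deiminated and -4.08 ± 0.72 for non-deiminated, which became 1.23 and 1.39 after the shift. Without non-deiminated replicate 1 the non-deiminated value was -3.34, and without non-deiminated replicate 2 it was -4.82. Rpsa, also known as the laminin receptor precursor, had 9708 and 14156 in deiminated RNA, 7238 and 17215 in non-deiminated RNA and 35894 in input, and -1.61 ± 0.69 for deiminated and -1.68 ± 0.69 for non-deiminated did not pass (adjusted p = 0.0662 and 0.0581), turning to 3.82 and 3.79 after the shift. After cyclic loess Rpsa was called lower, with -3.20 and -3.19 (adjusted p = 0.000311 and 0.000315), and its deiminated value was also called with either non-deiminated array left out. Its other probe set, 1416196_at, had 31.9 and 7.64 in deiminated RNA, 22.1 and 23 in non-deiminated RNA and 173 in input and was called lower in both comparisons, with -3.10 ± 0.93 for deiminated and -2.73 ± 0.93 for non-deiminated.

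Probe sets of 1 gene often disagreed. Of 22 genes with at least 2 tested probe sets, 12 had all of them in 1 direction and 10 had both directions, in each comparison with input. Calls in both directions within a gene were found for 4 genes in deiminated RNA (Rpl35, Rpl41, Rps24 and Rps9) and for the same genes and Rps18 in non-deiminated RNA. Rps9 spanned the widest range. Its probe set 1433689_s_at had 1051 and 902 in deiminated RNA, 1161 and 508 in non-deiminated RNA and 26.3 in input, a rise by 5.0 ± 0.47 for deiminated and 4.66 ± 0.47 for non-deiminated, while 1434624_x_at above and 1426958_at fell. The last had 14.9 and 27.4 in deiminated RNA, 27.7 and 6.36 in non-deiminated RNA and 225 in input, with -3.23 ± 0.96 for deiminated and -3.65 ± 0.96 for non-deiminated, and without deiminated replicate 1 its deiminated value of -2.86 was not called (adjusted p = 0.06). Leaving out non-deiminated replicate 1 or 2 gave non-deiminated values of 4.07 and 5.25 for 1433689_s_at, and -4.44 and -2.85 for 1426958_at.

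Rpl35, whose protein lies at the mouth of the exit tunnel, had 6 probe sets. The brightest of them, 1436840_x_at, was not called (0.16 for deiminated and 0.16 for non-deiminated), nor was 1434231_x_at (0.99 and 0.98). 3 were called higher, 1455950_x_at with 1.69 ± 0.45 for deiminated and 1.59 ± 0.45 for non-deiminated, 1454856_x_at with 1.55 ± 0.39 for deiminated and 1.60 ± 0.39 for non-deiminated and 1416243_a_at with 1.35 ± 0.46 for deiminated and 1.42 ± 0.46 for non-deiminated. The deiminated calls of all 3 were lost without deiminated replicate 1, with values of 1.62, 1.31 and 0.89. The probe set 1454833_at had 15.1 and 15.2 in deiminated RNA, 18.9 and 19 in non-deiminated RNA and 336 in input, nearly equal signals on the arrays of each bound group, and was called lower, with -4.14 ± 0.83 for deiminated and -3.88 ± 0.83 for non-deiminated. Rpl41, which encodes a very short basic peptide of the ribosome, had 6085 and 1603 in deiminated RNA, 4470.0 and 3051 in non-deiminated RNA and 592 in input for 1455578_x_at, with 2.39 ± 0.63 for deiminated and 2.63 ± 0.63 for non-deiminated. Its deiminated value was 1.43 and not called without deiminated replicate 1 (adjusted p = 0.0778), and 3.35 without deiminated replicate 2. For 1433530_at it had 110.3 and 236 in deiminated RNA, 115 and 109.7 in non-deiminated RNA and 726 in input, with -2.14 ± 0.50 for deiminated and -2.65 ± 0.50 for non-deiminated. Its probe set 1454639_x_at was lower too, with -1.67 ± 0.44 for deiminated and -1.98 ± 0.44 for non-deiminated, and its deiminated call was lost without deiminated replicate 1 (-1.22). The Rpl41 probe set 1422623_x_at was not called (0.53 and 0.41).

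Rps24, a small subunit protein whose transcripts are alternatively spliced, had 1436064_x_at called higher by 1.27 ± 0.45 for deiminated and 1.36 ± 0.45 for non-deiminated and 1436500_at called lower, with -2.48 ± 0.97 for deiminated and -3.74 ± 0.97 for non-deiminated. The lower one had 19.7 and 52.5 in deiminated RNA, 4.41 and 23.6 in non-deiminated RNA and 201 in input, and without deiminated replicate 1 its deiminated value of -1.86 was not called, against -3.10 without deiminated replicate 2. Its non-deiminated values were -2.89 and -4.58 without non-deiminated replicates 1 and 2. The deiminated call of 1436064_x_at was lost without either deiminated array (1.03 and 1.51). Its non-deiminated call, at 1.36, was lost in these runs as well. The Rps24 probe sets 1428530_x_at (-0.10 and 0.14), 1453362_x_at (-0.005 and 0.23) and 1456628_x_at (0.17 and 0.55) were not called. Rps18, a protein of the small subunit head, had 1448739_x_at higher by 2.39 ± 0.36 for deiminated and 2.21 ± 0.36 for non-deiminated and 1435712_a_at higher by 2.06 ± 0.39 for deiminated and 1.91 ± 0.39 for non-deiminated. Its probe set 1421837_at had 19.2 and 29 in deiminated RNA, 3.58 and 44.5 in non-deiminated RNA and 158 in input, and was called lower in non-deiminated RNA, with -3.06 ± 1.08. This call was lost without non-deiminated replicate 1 (-1.74) and kept without non-deiminated replicate 2 (-4.39). The brightest Rps18 probe set, 1455572_x_at, was not called (0.37 and 0.32). Without a variance trend, Rpl35 1416243_a_at and Rps24 1436064_x_at lost both calls, and Rpl41 1455578_x_at and Rps24 1436500_at their deiminated calls. After cyclic loess the higher calls of Rpl35, Rpl41 and Rps24 were lost in both comparisons, and 1436064_x_at of Rps24 had negative values (-0.24 and -0.10). The lower calls of 1436500_at of Rps24 (-0.88 and -2.22) and 1426958_at of Rps9 (-1.53 and -2.03) were lost as well, and in non-deiminated RNA the 3 Rps18 calls, with 0.90 for 1448739_x_at, 0.49 for 1435712_a_at and -1.46 for 1421837_at. After centring on the median, the lower calls of Rpl41 were lost, with -0.65 and -1.23 for 1433530_at and -0.17 and -0.57 for 1454639_x_at. So were those of 1426958_at of Rps9 (-1.73 and -2.23), of 1436500_at of Rps24 in deiminated RNA (-0.99) and of 1421837_at of Rps18 in non-deiminated RNA (-1.65). Quantile normalisation ended both higher calls of Rpl35 1454856_x_at (0.66 and 0.72) and 1455950_x_at (0.53 and 0.43). The same held for Rpl41 1455578_x_at (1.52 and 1.77) and Rps24 1436064_x_at (0.14 and 0.34). It also ended the lower calls of Rps9 1426958_at (-2.38) and Rps24 1436500_at (-1.40) in deiminated RNA. In non-deiminated RNA it ended that of Rps18 1421837_at (-1.87).

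**Figure D3:**
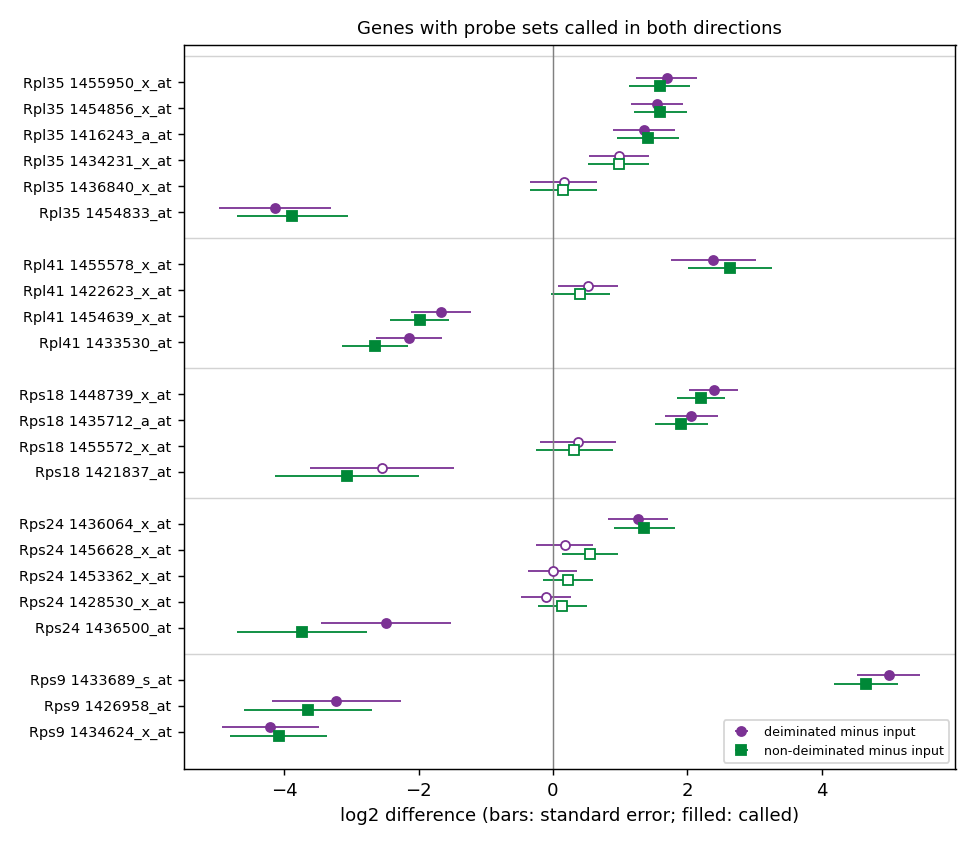
Log2 difference from input of every tested probe set of the 5 genes with calls in both directions, in deiminated RNA (purple circles) and non-deiminated RNA (green squares), with standard errors as bars and filled symbols for calls. Within Rps9 the values run from -4.21 to 5.0 in deiminated RNA.

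The members are also given by the kind of probe set. Affymetrix adds a to the name of a probe set that matches several transcripts of 1 gene and x to one with probes that also match other sequences, and plain names have neither. Of 28 tested probe sets of the a kind, 22 were called higher and 0 lower in deiminated RNA, with a median log2 difference of 2.30, and over all probe sets of that kind 34.6% and 20.2% were. Of 27 plain ones, 8 were called higher and 7 lower, with a median of 0.01, against 22.3% and 28.5% of all of that kind. Of 38 of the x kind, 17 were called higher and 2 lower, with a median of 1.26, against 27.3% and 24.3% of all of that kind. In non-deiminated RNA the counts were 22 and 0 for the a kind, against 35.2% and 18.7% of all of that kind. They were 7 and 9 for plain ones, against 22% and 27.7%, and 19 and 2 for the x kind, against 27.6% and 23.3%. A further 3 tested members have s in the name, and 2 were called higher and 0 lower in either comparison. Over all of the s kind the shares were 37.5% and 16.7% in deiminated RNA, and 36.9% and 15.8% in non-deiminated RNA. The difference between the kinds was not tested, and kinds share genes.

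In other genes the probe sets differed in size without opposing calls. Rps10, with 6 tested probe sets, had log2 differences in deiminated RNA between 0.22 and 4.81, all positive. Rpl7, with 3, had 1.94 to 5.98, and its probe set 1426162_a_at had 1159 and 840.0 in deiminated RNA, 999 and 1279.7 in non-deiminated RNA and 11.5 in input. Rpl13a, with 4, ran from -0.86 to 4.78. Its probe set 1433928_a_at had 1500.3 and 1095 in deiminated RNA, 1162 and 1258 in non-deiminated RNA and 42.6 in input, and its brightest, 1455485_x_at, had 12877 and 15456 in deiminated RNA, 11003 and 15767 in non-deiminated RNA and 25629 in input and was not called. Rpl13a is also the gene whose protein leaves the ribosome in the interferon response of human myeloid cells. These 3 genes were picked after their values were seen. Of the 49 members called higher in deiminated RNA, 6 had an input signal under 4 times the 4.18 added before log2. They include 1426162_a_at of Rpl7, 1416719_a_at of Rps10 (10.1 in input) and the brightest probe set of Rps27l (12.9 in input). Such differences rest on a dim signal of the single input array.

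Several members are second copies of a ribosomal protein gene, some of them restricted to certain tissues, and they were set beside their partners. Rpl3l, the muscle copy of Rpl3, did not reach the signal filter, with 2.54 and 2.13 in deiminated RNA, 0.682 and 2.54 in non-deiminated RNA and 93.8 in input. Its bound signals lay near the bottom of the scale. Rpl39l, known from testis, had 44.9 and 33.5 in deiminated RNA, 23.1 and 2.28 in non-deiminated RNA and 103 in input. It was called lower in non-deiminated RNA, with -3.01 ± 1.02, against -1.32 ± 1.02 in deiminated RNA, and the non-deiminated value was -4.05 without non-deiminated replicate 1 and -1.97 without non-deiminated replicate 2. That call was lost after quantile normalisation, cyclic loess and median centring (-1.56, -1.33 and -1.59), and both values were positive after the shift to hybridisation controls (4.12 and 2.46). Its partner Rpl39 is described above.

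Rps27l, a copy of Rps27 that p53 induces, had 204 and 169 in deiminated RNA, 255 and 290.4 in non-deiminated RNA and 12.9 in input and was called higher by 3.47 ± 0.48 for deiminated and 4.01 ± 0.48 for non-deiminated. The brightest probe set of Rps27 was called lower. A further probe set of Rps27l, 1423254_x_at, lay below input on every bound array and was not called (-0.997 and -0.80), while 1450925_a_at was called higher (3.37 and 3.62). Rpl22l1 had 2518 and 1772 in deiminated RNA, 3074 and 1442 in non-deiminated RNA and 729.8 in input and 1.53 ± 0.48 for deiminated and 1.52 ± 0.48 for non-deiminated, and its partner Rpl22 had 3234 and 2739 in deiminated RNA, 3737 and 2566 in non-deiminated RNA and 1352 in input and 1.14 ± 0.43 for deiminated and 1.19 ± 0.43 for non-deiminated. Both genes were called higher, but Rpl22 lost its deiminated call without either deiminated array and turned negative after cyclic loess (-0.37 and -0.26), and Rpl22l1 lost its deiminated call without deiminated replicate 1 (1.27). The non-deiminated call of Rpl22 was also lost without either deiminated array (1.19 in both runs) and without non-deiminated replicate 1 (0.92). After quantile normalisation Rpl22l1 (0.40 and 0.50) and Rpl22 (-0.018 and 0.15) were not called, and without a variance trend all 4 calls were lost as well. Rpl7l1, a copy of Rpl7, had 249 and 143 in deiminated RNA, 223 and 201 in non-deiminated RNA and 206 in input, which overlapped with input, and its probe set 1439780_at was called higher in deiminated RNA (1.76, adjusted p = 0.0178). Rpl7 was called higher by 1.94 ± 0.41 for deiminated and 2.09 ± 0.41 for non-deiminated with 3002 and 2285 in deiminated RNA, 2607 and 3257 in non-deiminated RNA and 679.6 in input. Rps4x, the X-linked gene, had 6659.7 and 6916 in deiminated RNA, 5611 and 8659 in non-deiminated RNA and 1223 in input and was called higher by 2.47 ± 0.48 for deiminated and 2.51 ± 0.48 for non-deiminated. After cyclic loess the deiminated value of Rps4x (0.90) and both values of Rpl7 (0.46 and 0.66) and Rpl22l1 (0.07 and 0.11) did not pass. Rps4l had 105 and 104 in deiminated RNA, 119 and 85.2 in non-deiminated RNA and 42.2 in input, and 1.23 ± 0.56 for deiminated and 1.18 ± 0.56 for non-deiminated did not pass. Rps4l was called higher in both comparisons after quantile normalisation (2.31 and 2.22), cyclic loess (1.65 and 1.56) and median centring (2.73 and 2.60).

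The 9 members under the signal filter were 1449398_at of Rpl3l, 1455835_at of Rps16, 1421838_at and 1450390_x_at of Rps18, 1421935_at of Rps20, 1455195_at of Rps24, 1447563_at of Rps3, 1420303_x_at of Rps4x and 1453466_at of Rps6. Only the one of Rps24 was higher on all bound arrays than in input, with 43.6 and 28.5 in deiminated RNA, 26.2 and 34.7 in non-deiminated RNA and 3.41 in input. That of Rps18 named 1421838_at overlapped with input, and the other 7 were lower on every bound array. Rps16, for which no other member probe set was listed, had 0.477 and 0.362 in deiminated RNA, 0.613 and 1.08 in non-deiminated RNA and 16.1 in input.

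Whether deimination changes which ribosomal protein mRNAs bind was addressed by the 4 bound arrays. No member was called between deiminated and non-deiminated RNA: limma called 0 of 96, and 0 had an unadjusted p under 0.05. Over all 27022 probe sets it also called 0 (0%), with 356 at an unadjusted p under 0.05. The members' log2 differences ran from -0.63 to 1.69 with a median of -0.02, and 43 were positive and 53 negative. Deiminated signals lay above non-deiminated ones without overlap for 5 members and below for 7, with 11% and 13.1% as the shares over all probe sets tested. The 95% interval lay within a 2-fold change for 43 members and within a 4-fold change for 89. For these members this bounds a difference in the scaled signals, given the spread between these arrays, and sets no such bound for the others.

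The 5 genes with the largest moderated t in each direction are given as values, since none passed (adjusted p = 0.9999 for each). Rps19 had 951 and 804 in deiminated RNA, against 1165 and 1259 in non-deiminated RNA, which did not overlap, and a log2 difference of -0.47 (95% interval -1.12 to 0.18). Rps27l had 204 and 169 in deiminated RNA, against 255 and 290.4 in non-deiminated RNA, and -0.54 (95% interval -1.39 to 0.30). For Rpl19 the difference was -0.41 (95% interval -1.15 to 0.34), for Rps15, a protein close to the decoding site, -0.52 (95% interval -1.49 to 0.44), and for Rps27 -0.63 (95% interval -1.83 to 0.56). The value of Rps15 was 0.20 without non-deiminated replicate 2. On the other side, Rpl39l had 1.69 (95% interval -0.11 to 3.50), with 44.9 and 33.5 in deiminated RNA, against 23.1 and 2.28 in non-deiminated RNA. The last of these signals stood far below the other. Rps2 had 0.43 (95% interval -0.42 to 1.27) and Rpl4 0.29 (95% interval -0.43 to 1.00), while Rps26 and Rps25 had 0.26 and 0.23.

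**Figure D4:**
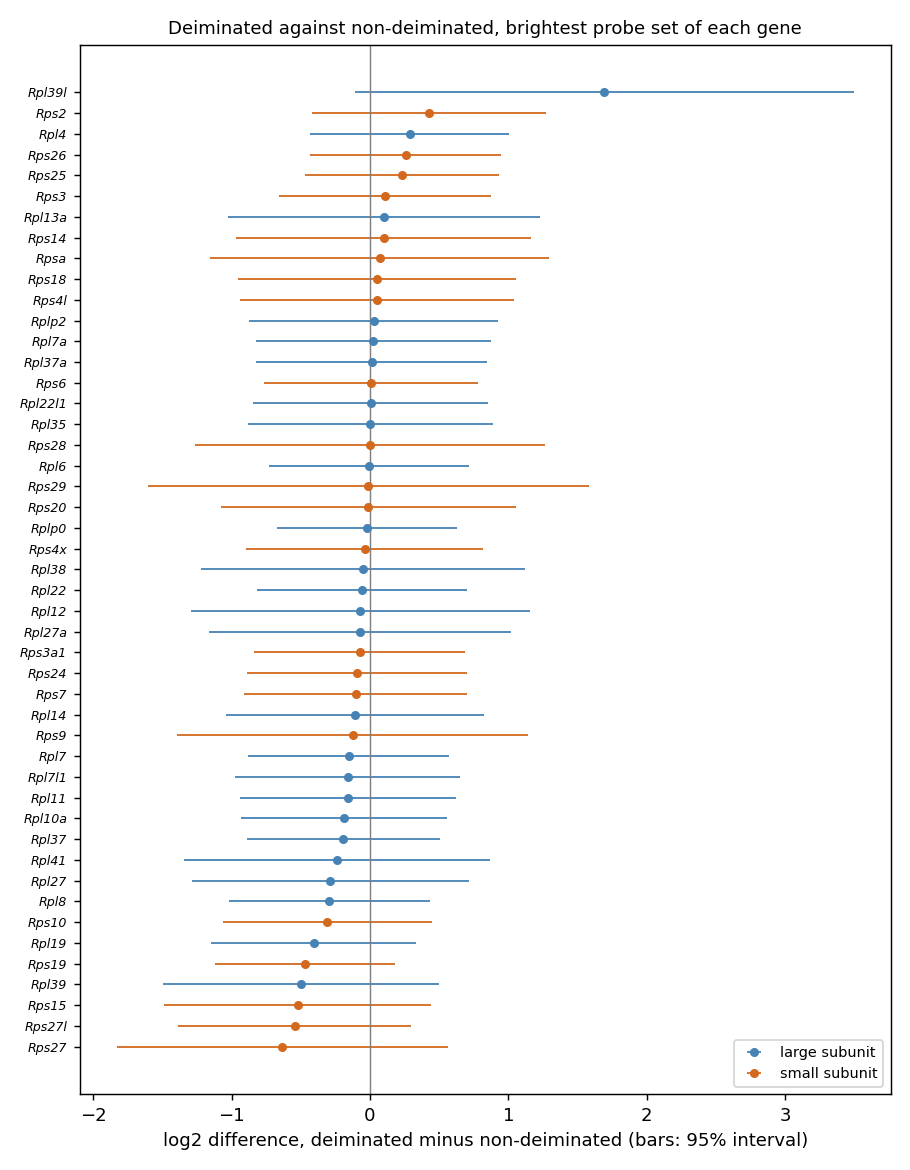
Log2 difference of deiminated minus non-deiminated RNA for the brightest probe set of each of the 47 tested genes, with 95% intervals from limma as bars, large subunit genes in blue and small subunit genes in orange. Every interval includes 0, and the point farthest from 0 is Rpl39l with 1.69.

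The replicates of a group differed in different ways for the members and for the array as a whole. Deiminated replicate 2 exceeded replicate 1 for 40 of the 96 members (41.7%), against 56.6% of all probe sets tested, and non-deiminated replicate 2 exceeded replicate 1 for 62 (64.6%), against 56.0%. Among large subunit members the deiminated count was 11 of 47 and among small subunit members 29 of 49. 3 probe sets had the largest distance between replicates. Rps18 1421837_at and Rpl39l are given above, and Rps10 1436384_at had 10.1 and 76.6 in deiminated RNA, 27.1 and 39.9 in non-deiminated RNA and 25 in input.

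Other mRNAs known to carry the TOP motif, such as those of translation factors, were counted in the same way. Of 17 such genes, 12 had their brightest probe set called higher and 0 lower in deiminated RNA, against 29.5% and 22.4% over all genes, with a median log2 difference of 2.15. In non-deiminated RNA the counts were 12 and 0, against 29.2% and 21.3%, with 2.09. Eif3h and Eif3e, subunits of an initiation factor, had 4.33 and 3.48 in deiminated RNA, Tpt1, the translationally controlled tumour protein, 3.94, and Pabpc1, the poly(A) binding protein, 3.02. Eef1a1, an elongation factor, had 6986 and 7943 in deiminated RNA, 7096 and 7113 in non-deiminated RNA and 1143 in input, with 2.70 ± 0.47 for deiminated and 2.63 ± 0.47 for non-deiminated. Eef1d, with -0.89 ± 0.43 for deiminated and -0.75 ± 0.43 for non-deiminated, and Eef2, with 0.08 ± 0.39 for deiminated and 0.10 ± 0.39 for non-deiminated, did not pass. Over all 36 tested probe sets of these genes, 19 were called higher (52.8%) and 5 lower (13.9%) in deiminated RNA, against 24.9% and 26.6% of all probe sets, with a median of 1.14 that was -0.03 after cyclic loess. The genes of this and the next lists named with values were picked after the values were seen.

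Genes that assemble the ribosome rather than form part of it were counted next. Of 25 tested assembly genes, 10 had the brightest probe set called higher in deiminated RNA (40%) and 1 lower (4%), against 29.5% and 22.4% over all genes, with a median of 0.10. Over all 47 tested probe sets of these genes the median was 0.00, and -0.17 after cyclic loess. Eif6, which keeps the subunits apart, had 4.13, Rrs1 4.10, and the RNA polymerase I gene Polr1b -2.20. Of 130 tested probe sets of mitochondrial ribosomal proteins, 42 were called higher (32.3%) and 24 lower (18.5%), against 24.9% and 26.6% of all probe sets, with a median of 0.44 that was -0.44 after cyclic loess. Fau, whose product is cleaved to a small subunit protein although its symbol is not an Rps name, had 1755 and 1337 in deiminated RNA, 2091 and 1491 in non-deiminated RNA and 5658 in input. It was called lower in both comparisons, with -1.88 ± 0.42 for deiminated and -1.68 ± 0.42 for non-deiminated.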

How the data were processed

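RNA of 5 samples was measured on Affymetrix mouse arrays. The deposited table gives each probe set's signal intensity on a linear scale, and the submitters' processing notes name MAS5. The sources used here give neither its version nor detection calls. The mean after trimming 2% at each end was 150 on every array, which shows a common scaling by the authors. Of 45101 probe sets, 64 were controls, 34945 of the others had 1 symbol in the platform annotation, 932 several and 9160 none, and the Entrez identifiers of all 49 member genes were found in the RefSeq gene table, with 0 symbols changed.

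A pseudocount of 4.18, a share of 1 in 10 of the overall median signal (41.8), was added before log2. It understates the change of dim probe sets. Probe sets were kept from the 40th percentile of mean log2 value upwards, controls left out (27022 kept). limma 3.58.1 in R 4.3.3 (lmFit, eBayes with trend) fitted 1 model of 3 group means, with 2 residual and 10.91 prior degrees of freedom, which takes the spread of the single input array to equal that of the bound ones. P-values were adjusted over all 27022 by Benjamini-Hochberg with a threshold of 0.05. The model was tested on simulated data for deiminated against non-deiminated RNA alone. That test does not cover the comparisons with the single input array. The number of arrays limits the precision.

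Genes were named by rule: up to 10 called genes per direction against input, 5 per direction by moderated t between the bound groups, second copies with partners, genes with opposing calls, proteins of stalk, 5S particle and exit tunnel with Rps6, Rps19, Rps3, Rps2, Rps27a and Rpsa, and 3 probe sets with distant replicates. Members and lists were chosen with earlier results of these data known. Replicate numbers follow sample order and pair no arrays. Alternatives covered the pseudocount (1.05 and 16.7), the filter (none, 60th percentile), the scaling, the variance trend, the bound arrays alone, a block for the protein in the title and leaving out each bound array.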

Additional observations from a re-analysis of the deposited data

How the results depend on the processing

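The 94 differences of named probe sets were recomputed 1219 times over the alternatives: 1049 kept direction and side of the threshold, and 45 changed sign. With the direction kept, 101 lost a call and 24 gained one. Calls lost or gained together with a change of sign are counted under the sign changes alone. Deiminated against non-deiminated had 0 members called under each alternative, and its median ran from -0.24 to 0.03 when 1 array was left out, with 12 of 96 members (12.5%) and 11% of all probe sets at an unadjusted p under 0.05 without non-deiminated replicate 1. Over all probe sets 33 were then called higher and 8 lower. The replicate numbers pair no arrays. Pairing the bound arrays by the protein named in the title, as a block, gave 0 calls and a median of -0.02. Against input, members called lower were 14 of 105 in deiminated RNA without a filter, against 32.7% of all probe sets. With the filter at the 60th percentile they were 5 of 86 in either comparison (5.81%), against 18.7% and 18% of all. After cyclic loess they were 18 in deiminated RNA (18.8%), against 17.2% of all. They were 3 and 4 after median centring, against 4.83% and 4.54% of all. After scaling to hybridisation controls they were 0 and 0, as over all probe sets. Members called higher were 26 and 25 after cyclic loess, against 22.8% and 22.3% of all. The median was 1.02 and 1.00 after quantile normalisation, 0.15 and 0.14 after cyclic loess, 2.78 and 2.70 after median centring, and 6.72 and 6.75 after scaling to hybridisation controls. Relative to all probe sets it was 1.49 and 1.48 on the deposited scale, 0.50 and 0.52 after quantile normalisation and 0.39 and 0.39 after cyclic loess. Leaving out 1 bound array gave 30 to 61 called higher, 6 to 12 called lower and a median of 1.29 to 1.51 in deiminated RNA, and 45 to 60, 10 to 13 and 1.30 to 1.47 in non-deiminated RNA. 30 was the count without deiminated replicate 1.

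Signs changed as follows, with the deiminated value first where both changed. Scaling to hybridisation controls, which by construction adds 1 constant per array and raised the median difference of all probe sets to 5.23 and 5.28, gave Rpl35 1454833_at 1.30 and 1.59, Rpl39l 4.12 and 2.46, Rpl41 1433530_at 3.30 and 2.82 and 1454639_x_at 3.77 and 3.49, Rps18 1421837_at 2.90 and 2.41, Rps24 1436500_at 2.96 and 1.73, Rps25 3.75 and 3.54, Rps27 1.44 and 2.11, Rps9 1426958_at 2.21 and 1.82 and 1434624_x_at 1.23 and 1.39, and Rpsa 3.82 and 3.79. In deiminated RNA it gave Rpl39 5.28 and Rpl7l1 5.32. Quantile normalisation gave Rpl22 -0.018, Rpl39 1.24, Rpl39l 0.16 and Rpl7l1 0.67 in deiminated RNA. Cyclic loess gave Rpl22 -0.37 and -0.26, Rplp2 -0.38 and -0.35, Rps24 1436064_x_at -0.24 and -0.10, Rpl39 0.15 and Rpl39l 0.45 in deiminated RNA, and Rpl7l1 -0.43 in non-deiminated RNA. Median centring gave Rpl39 1.34, Rpl39l 0.18 and Rpl7l1 1.38 in deiminated RNA. Leaving out 1 deiminated array gave Rpl39 -0.317 to 0.004 and Rpl7l1 -0.511 to 0.27 in deiminated RNA. Leaving out 1 non-deiminated array gave Rpl39 -0.035 to 0.715 and Rpl7l1 -0.035 to 0.112 in non-deiminated RNA, and Rps15 -1.25 to 0.20 between the bound groups. Where a single array or the scaling turned a sign, the cause was not tested further. Signal over background limits the dim probe sets, and 5 arrays limit the precision.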

Other observations

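Ribosomal protein genes were also present on probe sets that list several symbols, which were no members because a signal there cannot be given to 1 gene. There were 110 such probe sets, and 100 passed the signal filter. In deiminated RNA against input 55 were called higher and 7 lower, against 24.9% and 26.6% of all probe sets, with a median log2 difference of 1.49. In non-deiminated RNA the counts were 56 and 5, against 24.7% and 25.7% of all, with 1.41. After cyclic loess the counts were 21 and 22 in deiminated RNA, against 22.8% and 17.2% of all, with a median of 0.01. They were 23 and 24 in non-deiminated RNA, against 22.3% and 16.6% of all, with -0.01. Between deiminated and non-deiminated RNA limma called 0 of the 100, and 0 had an unadjusted p under 0.05.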
